A study of Mus musculus with 2 samples.

Results

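The 32 genes described here encode enzymes of cholesterol and fatty acid synthesis and the proteins that sense sterol and switch these enzymes on. They were chosen by name, as a list of known pathway genes, and every one of them had at least 1 probe set that the platform annotation assigned to that gene alone. They make up 32 of the 18193 genes with such a probe set. Sterol enzymes (17 genes), sterol regulators with a cholesterol carrier (6 genes) and fatty acid genes (9 genes) were kept apart. Of the 32, all 32 had a probe set with a log2 level of 6 or more on either array, a brightness floor that equals an intensity of 63 and that 11397 of the 18193 genes reached. The value given for a gene is that of its brightest probe set unless another is named, and a log2 level is log2(intensity + 1).

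Muscle precursor cells of 2 cultures were compared, with 1 array each. The Wnt3a culture consisted of primary myoblasts from newborn Sv129 mice that spent 4 hours in DMEM with 2% HS and 100 ng/ml Wnt3a, and the control culture of the same kind of cells that spent 4 hours in that medium without it. Both were grown on laminin and collagen, and the labels give neither the number of animals nor whether they were pooled. Wnt3a is a secreted ligand that stabilises β-catenin, and the comparison asks which transcripts differ after a short exposure to it. Each value below is a single measurement, so no gene has a test, an SD or a replicate check, and the number of arrays limits the precision.

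Cholesterol is built from acetyl-CoA through mevalonate, farnesyl diphosphate and squalene, and fatty acids from acetyl-CoA through malonyl-CoA and palmitate, with later elongation and desaturation. Transcription of most genes of both pathways depends on the SREBP factors. When membranes are rich in sterol, INSIG proteins hold SCAP and its SREBP cargo in the endoplasmic reticulum, and when sterol is scarce SCAP carries SREBP to the Golgi, where proteolysis frees the active factor. Proliferating myoblasts need both products for new membrane.

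The 32 genes differed little between the cultures, and the largest differences among them were toward lower signal with Wnt3a. Idi1, Elovl6, Insig1 and Sqle were lower by 1.28-fold, 1.27-fold, 1.24-fold and 1.23-fold, and each of the other 28 differed by less than 0.16 on the log2 scale on its brightest probe set. Of the 17 sterol enzymes 12 were lower with Wnt3a, of the 6 regulators 5 and of the 9 fatty acid genes 7, in each case on the brightest probe set, where 51.2% of all measured genes were lower. That share varied with brightness. Among measured genes that are not members it was 44.1% at a mean log2 level below 8, 54.3% from 8 to 10 and 55.1% from 10 up. Sterol enzymes numbered 5, 8 and 4 in these bands, regulators 0, 5 and 1, and fatty acid genes 1, 4 and 4. The median log2 difference, Wnt3a minus control, was -0.081 over the sterol enzymes, -0.048 over the regulators and -0.055 over the fatty acid genes, against -0.0057 over all 11397 measured genes, of which 47.3% were higher. All of these medians became positive when the arrays were scaled on their spike-in controls (0.11, 0.14, 0.13 and 0.18 in the same order), so the directions given here hold only in relation to the other genes on the arrays. That scaling adds the same value to every gene. Relative to the median of all genes, the group medians were therefore -0.075, -0.042 and -0.049 with or without it, by construction. By at least 0.1 on the log2 scale, 11 of the 32 genes were lower and 5 higher as deposited, where 23.6% of all measured genes were lower and 20% higher by that much. Against a threshold of 0.32 on the log2 scale (a ratio of 5 to 4), 2 of the 32 genes, Idi1 and Elovl6, were lower and none was higher, where 2.7% of all measured genes were lower and 2.61% higher by that much. Neither passed with the mean of the probe sets at the floor (-0.30 for Idi1 and -0.15 for Elovl6), and under spike-in scaling no member was lower by that much and Tm7sf2 was higher (0.34). No member reached 1.5-fold or 2-fold on its brightest probe set, although a dimmer probe set of Scd2 gave -0.66. Of all measured genes, 0.342% and 0.0614% reached these as lower and 0.886% and 0.254% as higher.

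**Figure D1:**
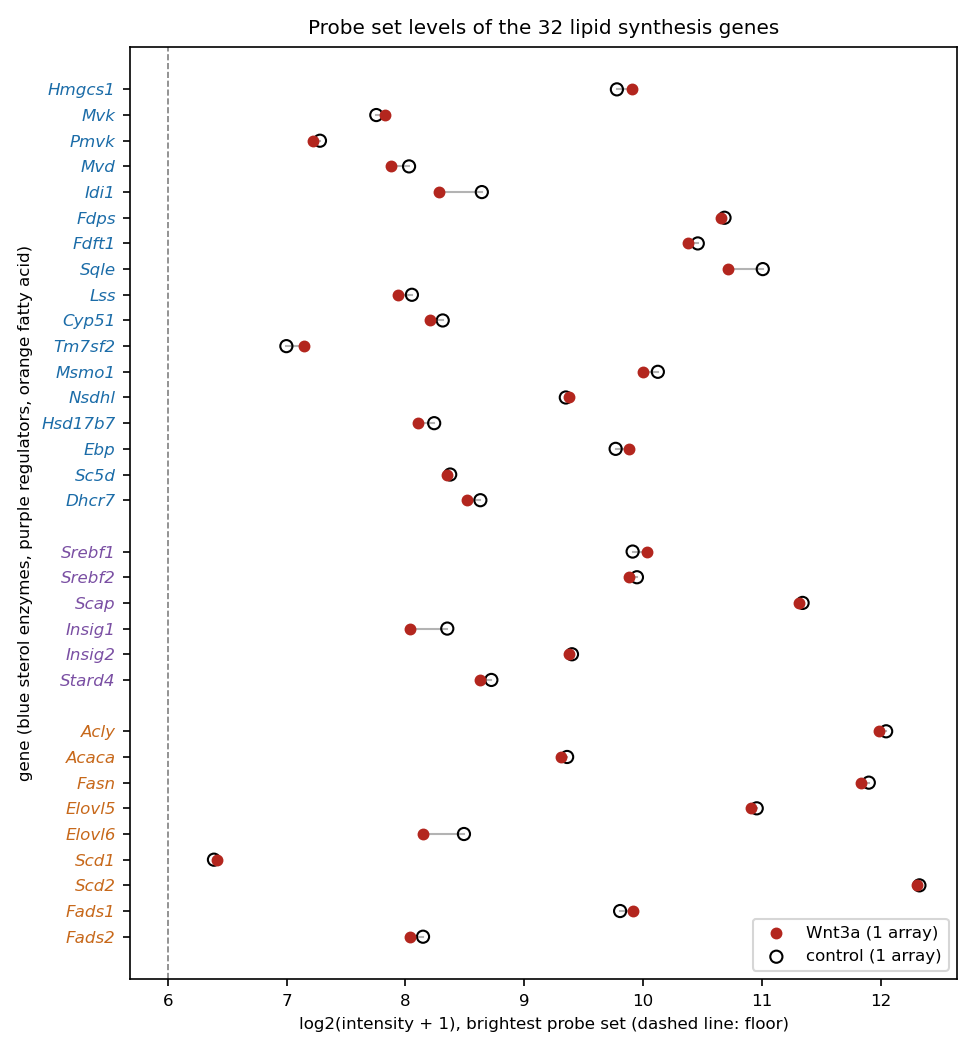
Level of each of the 32 genes on its brightest probe set, as log2(intensity + 1) on the horizontal axis, with 1 filled red point for the Wnt3a array and 1 open circle for the control array. The dashed line is the floor of 6. Most points of a gene overlap or nearly do, and the wider gaps are those of Idi1, Sqle, Insig1 and Elovl6, which lie lower with Wnt3a as deposited and would still do so after adding the spike-in shift of 0.19.

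Some measures of the whole arrays bear on these small differences. Spike-in RNAs were lower on the Wnt3a array in all 42 control probe sets, with a median of -0.19 on the log2 scale. The 18 hybridization controls among them had a median of -0.17 and the 24 poly-A controls 1 of -0.21. Several of these probe sets read the same spike-in RNA, so they are not independent readings. The signal at the 3′ end over the 5′ end, a sign of RNA integrity, was close between the arrays, at -0.040 with Wnt3a and -0.023 in the control for Gapdh, and 0.60 with Wnt3a and 0.56 in the control for Actb, all as log2 differences. Axin2, which Wnt signals switch on and which limits β-catenin, stood at 10.25 with Wnt3a and 6.64 in the control. All 7 myoblast markers reached the floor, among them Myod1 at 13.28 with Wnt3a and 13.41 in the control, Pax7 at 11.08 with Wnt3a and 11.20 in the control, Myf5 at 12.45 with Wnt3a and 11.96 in the control, and Des at 11.22 with Wnt3a and 10.91 in the control. Of 8 adipocyte markers only Lpl and Retn reached the floor, and the 8 summed to an intensity of 327 with Wnt3a and 330 in the control. Of 9 lung epithelium markers 4 reached it, and the 9 summed to 464 with Wnt3a and 767 in the control. This came mainly through Scgb1a1, with log2 levels of 5.96 with Wnt3a and 8.39 in the control. Sftpc was also lower, at 5.24 with Wnt3a and 6.31 in the control. Ager differed little, at 6.60 with Wnt3a and 6.63 in the control, and Sftpb was higher, at 7.14 with Wnt3a and 7.05 in the control. Lung epithelium makes much lipid, and the part of the difference in Scgb1a1 and Sftpc in the results below was not tested. Leukocyte markers (4 of 6 at the floor) summed to 410 with Wnt3a and 437 in the control, and fibroblast markers (1 of 6, Col3a1) to 9520 with Wnt3a and 11172 in the control. Of 3 liver markers 2 reached the floor, and the 3 summed to 321 with Wnt3a and 292 in the control. No marker was listed at 0. In a bulk sample, fewer cells of a type and less RNA per cell cannot be told apart.

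The mevalonate arm, which turns acetyl-CoA into farnesyl diphosphate, held both the lowest and some of the higher differences. Its largest difference was that of Idi1, the isomerase that interconverts the isoprenoid building blocks, with an intensity of 311 with Wnt3a and 399 in the control, a log2 difference of -0.36. The second Idi1 probe set gave -0.25. By its difference, Idi1 ranked 238 from the lowest of the 11397 measured genes. Mvd, mevalonate diphosphate decarboxylase, was at 234 with Wnt3a and 260 in the control (-0.15, and -0.094 on its other probe set). Hmgcs1, which condenses acetyl-CoA with acetoacetyl-CoA at the entry of the pathway, ran the other way, at 960 with Wnt3a and 878 in the control (0.13), and all 4 of its probe sets at the floor were higher, by 0.054 to 0.21. The remaining steps differed by less. Mvk, mevalonate kinase, was at 227 with Wnt3a and 215 in the control (0.076), but -0.10 on its other probe set. Pmvk, phosphomevalonate kinase, was at 148 with Wnt3a and 155 in the control (-0.058). Fdps, farnesyl diphosphate synthase, was at 1610 with Wnt3a and 1646 in the control (-0.032). In this arm 4 of 6 genes were lower as deposited, with a median of -0.045, and Idi1 alone was under spike-in scaling.

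From squalene to cholesterol, 8 of 11 genes were lower with Wnt3a as deposited, with a median of -0.11, and Sqle alone was under spike-in scaling. Sqle, squalene epoxidase, which carries out a rate-limiting step of this part, was at 1677 with Wnt3a and 2058 in the control, a log2 difference of -0.29 on its single probe set. Its rank from the lowest was 384. The other lower enzymes of this arm had smaller differences. Lss, lanosterol synthase, was at 244 with Wnt3a and 265 in the control (-0.12). Cyp51, the lanosterol demethylase, was at 294 with Wnt3a and 317 in the control (-0.11), with -0.077 on its other probe set at the floor. Msmo1, a methylsterol oxidase, was at 1022 with Wnt3a and 1115 in the control (-0.13). Thus these 3 genes were each lower by less than 1.1-fold. Dhcr7, which makes cholesterol from 7-dehydrocholesterol, was at 365 with Wnt3a and 395 in the control (-0.12). Hsd17b7, a sterol ketoreductase, was at 274 with Wnt3a and 302 in the control (-0.14), but its other probe sets at the floor gave 0.076 and no difference. Fdft1, squalene synthase, was at 1331 with Wnt3a and 1408 in the control (-0.081), against 0.040 on another probe set. Sc5d, a sterol desaturase, showed the smallest negative difference of this arm, at 325 with Wnt3a and 331 in the control (-0.030, and 0.043 on another probe set).

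The other 3 enzymes of this arm were higher with Wnt3a as deposited and under spike-in scaling. Tm7sf2, a sterol reductase, was at 141 with Wnt3a and 127 in the control (0.15). Ebp, a sterol isomerase, was at 940 with Wnt3a and 871 in the control (0.11). Nsdhl, a sterol dehydrogenase, was at 663 with Wnt3a and 651 in the control (0.026). Each of the 3 rests on 1 probe set.

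Idi1 was the only sterol enzyme past the threshold of 0.32. At 1.1-fold, Idi1, Sqle, Mvd and Hsd17b7 were lower, 4 of 17, against 16.7% of all measured genes, and Tm7sf2 was higher, 1 of 17 against 13.4%. These counts are small, and whether their shares differ from the background was not tested. The sterol direction depended on the choice of probe sets as well as on scaling. Without probe sets that may match several transcripts (names ending in x_at, s_at or a_at), 14 sterol enzymes were measured, of which 7 were lower, with a median of -0.0022, and averaging every probe set of a gene gave a median of -0.028.

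The promoters of the 3 sterol enzymes with the largest negative differences among those with a RefSeq promoter sequence (build GRCm38.p6) are shown to compare what they share, and that of Hmgcs1, chosen after its values were seen, because it was the only one with several probe sets that were all higher. Each line gives the 250 bases before the start of the gene, 5′ to 3′ on the gene's strand. Capitals mark matches on either strand to the sterol regulatory element TCACNCCAC, the NF-Y box CCAAT, the Sp1 box GGGCGG, the E-box CACGTG or the TCF/LEF site CTTTGAT. None of these 5 motifs contains another. The windows are chr13:8885356-8885605 on the plus strand for Idi1, chr8:122443423-122443672 on the minus strand for Mvd, chr1:169969206-169969455 on the minus strand for Hsd17b7 and chr13:119690101-119690350 on the plus strand for Hmgcs1.
Idi1: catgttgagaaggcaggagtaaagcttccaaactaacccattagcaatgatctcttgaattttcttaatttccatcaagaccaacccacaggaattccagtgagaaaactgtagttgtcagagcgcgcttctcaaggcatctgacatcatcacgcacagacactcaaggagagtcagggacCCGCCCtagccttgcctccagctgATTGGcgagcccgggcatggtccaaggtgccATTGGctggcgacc
Mvd: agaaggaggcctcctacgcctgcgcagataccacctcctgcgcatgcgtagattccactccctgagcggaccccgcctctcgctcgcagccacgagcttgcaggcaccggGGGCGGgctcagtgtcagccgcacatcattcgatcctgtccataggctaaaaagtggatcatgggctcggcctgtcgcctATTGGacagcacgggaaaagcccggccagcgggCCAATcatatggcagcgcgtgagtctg
Hsd17b7: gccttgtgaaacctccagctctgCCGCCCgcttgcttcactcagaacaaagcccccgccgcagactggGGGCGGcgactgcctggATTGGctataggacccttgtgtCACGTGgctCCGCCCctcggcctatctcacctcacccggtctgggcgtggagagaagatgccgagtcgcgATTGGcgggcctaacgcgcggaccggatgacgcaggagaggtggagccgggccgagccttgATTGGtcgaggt
Hmgcs1: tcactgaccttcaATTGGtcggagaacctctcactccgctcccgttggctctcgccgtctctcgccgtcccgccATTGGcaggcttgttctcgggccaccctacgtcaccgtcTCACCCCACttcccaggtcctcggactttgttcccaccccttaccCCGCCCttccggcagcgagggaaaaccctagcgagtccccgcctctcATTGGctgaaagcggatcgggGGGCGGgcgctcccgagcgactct

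All 4 windows held an NF-Y box, the letters bound by the trimer NF-Y that works beside SREBP at many sterol genes. The nearest match began 14 bases before the start in Idi1, 27 in Mvd, 12 in Hsd17b7 and 45 in Hmgcs1. RefSeq promoters were matched for 14 of the 17 sterol enzymes, and 14 of these 14 genes had an NF-Y box in at least 1 window. Counted by window, 14 of 17 sterol enzyme promoters held one, against 33.9% of all 32851 promoters and 34.9% of the 11810 promoters of measured genes. Within 100 bases of the start it was present in 13 of 17, against 21.5% for measured genes. This cut of 100 bases was not planned beforehand, and the nearest matches in the 14 genes began 12 to 136 bases before the start. An Sp1 box stood in 14 of the 17 windows, against 57.7% for measured genes, and an E-box in 3, against 8.31%. The sterol regulatory element in the spelling searched was found in 1 of the 17, that of Hmgcs1, 137 bases before the start, against 0.999% for measured genes. No TCF/LEF match was found in any of the 33 member promoters, against 2.3% of the promoters of measured genes, which says only that these letters are not in these windows. A match is a description and not a binding site.

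**Figure D2:**
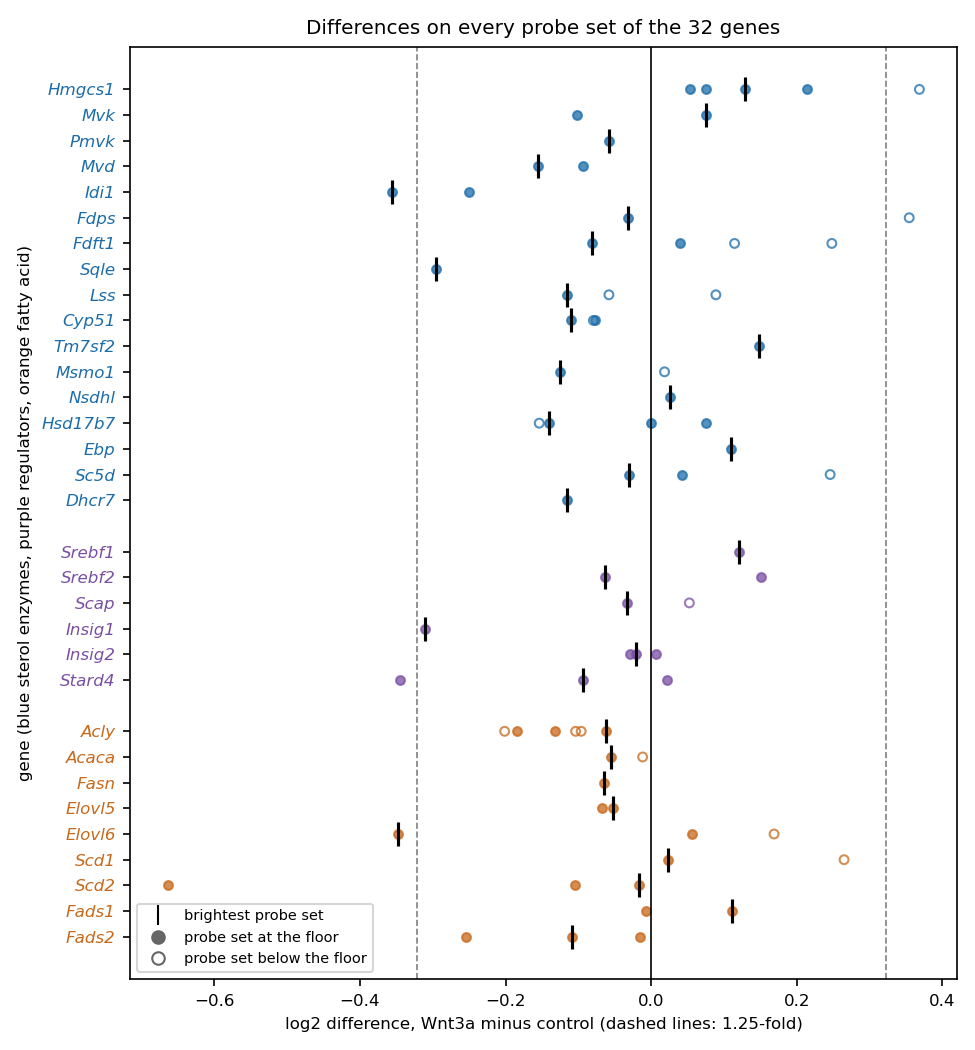
Log2 difference, Wnt3a minus control, on every probe set of the 32 genes, with sterol enzymes in blue, regulators in purple and fatty acid genes in orange. Filled points reach the floor, open circles do not, bars mark the brightest probe set and dashed lines 0.32 to either side of 0. Among filled points, Idi1 and Elovl6 have a brightest probe set beyond the dashed lines, Scd2 and Stard4 a dimmer one, and Elovl6 another on the other side of 0, all as deposited, whereas spike-in scaling would move every point by 0.19 to the right.

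Among the 6 regulators, Insig1 had the largest difference. Insig1, which retains SCAP when sterol is plentiful and is itself an SREBP target, was at 263 with Wnt3a and 326 in the control, a log2 difference of -0.31 on its single probe set, which ranked 337 from the lowest. Its relative Insig2, which does the same but does not depend on SREBP in this way, was at 665 with Wnt3a and 675 in the control (-0.021), and its 3 probe sets at the floor ranged from -0.028 to 0.0071. The difference between these paralogues was not tested. Scap, the escort protein, was at 2536 with Wnt3a and 2595 in the control (-0.033). The SREBP factors are encoded by a pair of genes. Srebf1, which encodes SREBP-1, the form best known for fatty acid genes, was at 1046 with Wnt3a and 962 in the control (0.12). Srebf2, which encodes SREBP-2, the form best known for cholesterol genes, was at 944 with Wnt3a and 987 in the control (-0.063), but its other probe set gave 0.15, so its direction depends on the probe set. Stard4, a carrier of cholesterol between membranes and an SREBP-2 target, was at 395 with Wnt3a and 422 in the control (-0.094), while its other probe sets gave -0.34 and 0.022. None of the 6 passed 0.32, and Insig1 was the only one beyond 1.1-fold. With the mean of all probe sets 3 of the 6 were lower, with a median of -0.0023, and under spike-in scaling Insig1 alone was.

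The Insig1 promoter is shown because Insig1 had the third largest difference of the 32 genes, and it was chosen after its values were seen. The window is chr5:28071162-28071411 on the plus strand of GRCm38.p6, drawn with the same capitals.
Insig1: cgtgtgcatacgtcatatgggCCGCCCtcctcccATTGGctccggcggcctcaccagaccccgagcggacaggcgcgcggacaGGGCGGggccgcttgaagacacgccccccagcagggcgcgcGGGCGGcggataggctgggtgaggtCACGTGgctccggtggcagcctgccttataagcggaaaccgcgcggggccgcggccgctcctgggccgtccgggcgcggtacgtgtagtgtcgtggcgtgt

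It held 1 NF-Y box, 3 Sp1 boxes and 1 E-box, the last beginning 101 bases before the start. Of the 10 promoters matched for 5 of the 6 regulators, 5 held an NF-Y box, 7 an Sp1 box, 2 an E-box and none the sterol regulatory element, against 34.9%, 57.7%, 8.31% and 0.999% of the promoters of measured genes. The spelling of that element is strict, and SREBP also binds other spellings.

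Fatty acid synthesis genes were lower with Wnt3a in 7 of 9 cases as deposited, by small amounts apart from Elovl6, and spike-in scaling left 1 of 9 lower. The 3 steps to palmitate had nearly equal differences. Acly, ATP citrate lyase, which supplies cytosolic acetyl-CoA, was at 4048 with Wnt3a and 4225 in the control (-0.062), and all 3 of its probe sets at the floor were lower, down to -0.18. Acaca, acetyl-CoA carboxylase, was at 632 with Wnt3a and 656 in the control (-0.055). Fasn, fatty acid synthase, was at 3649 with Wnt3a and 3818 in the control (-0.065). On the brightest probe set these 3 lay close together, each below 1.05-fold.

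Elovl6, the elongase that extends palmitate to stearate, was at 282 with Wnt3a and 359 in the control, a log2 difference of -0.35, which ranked 250 from the lowest. Its other probe set at the floor gave 0.057, and one below the floor 0.17, so the mean over the probe sets at the floor was -0.15. Elovl5, which elongates polyunsaturated fatty acids, was at 1915 with Wnt3a and 1986 in the control (-0.052, and -0.067 on its other probe set). Elovl6 was the only fatty acid gene past 0.32.

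The desaturases were evenly split on their brightest probe sets, with a median of 0.0033. Scd2, the stearoyl-CoA desaturase known for its expression in brain and in embryonic and neonatal tissue, was at 5068 with Wnt3a and 5128 in the control (-0.017). Its dimmer probe sets gave -0.10 and -0.66, the last the largest difference on any of the 57 probe sets of the 32 genes that reach the floor, with log2 levels of 7.30 with Wnt3a and 7.96 in the control. Scd1, the main stearoyl-CoA desaturase of liver and fat, lay just above the floor at 84.2 with Wnt3a and 82.8 in the control (0.023). Fads1 and Fads2 carry out the desaturations that make polyunsaturated fatty acids. Fads1 was at 966 with Wnt3a and 894 in the control (0.11, and -0.0065 on its other probe set). Fads2 was at 262 with Wnt3a and 283 in the control (-0.11), with -0.25 and -0.016 on its other probe sets.

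The Elovl6 promoter is shown for contrast, since this gene had the largest difference of the fatty acid genes. The window is chr3:129532136-129532385 on the plus strand of GRCm38.p6.
Elovl6: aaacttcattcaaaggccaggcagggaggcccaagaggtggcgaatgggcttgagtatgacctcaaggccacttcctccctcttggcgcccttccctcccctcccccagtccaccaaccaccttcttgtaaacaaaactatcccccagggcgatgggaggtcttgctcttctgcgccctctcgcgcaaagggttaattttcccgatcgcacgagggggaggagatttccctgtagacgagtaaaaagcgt

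It held no match to any of the 5 motifs, so no letter is in capitals. Promoters were matched for 6 of the 9 fatty acid genes. An NF-Y box was found in 2 of these 6, Elovl5 and Fasn, an Sp1 box in 2, Acly and Fads2, and an E-box in 1, Elovl5, against the same shares of 34.9%, 57.7% and 8.31% for measured genes. By the same unplanned cut, an NF-Y box within 100 bases of the start was found in 2 of 6 fatty acid promoters and 2 of 10 regulator promoters. It was found in 13 of 17 sterol enzyme promoters and in 21.5% of the promoters of measured genes.

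Repeat measurements within the arrays came only from probe sets of the same gene. Of the 32 genes 17 had at least 2 probe sets at the floor, and in 8 of these 17 (47.1%) the probe sets shared 1 sign, against 54.7% of the 5084 such genes on the arrays. Idi1, Mvd, Cyp51, Acly, Elovl5, Scd2 and Fads2 were lower on all of them as deposited and Hmgcs1 higher. Of the 57 probe sets of the 32 genes at the floor 38 were lower (66.7%), against 52.2% of all 19760 probe sets at the floor, and of the 17 below it 7 were lower (41.2%), against 42.5% of 15185. By group, those lower at the floor were 16 of 28 for sterol enzymes (57.1%), 7 of 11 for regulators (63.6%) and 15 of 18 for fatty acid genes (83.3%). Acly, Scd2 and Fads2 each gave 3 of the fatty acid probe sets, so these are not independent readings. The spread between probe sets of 1 gene ran from 0.015 for Elovl5 to 0.65 for Scd2. Under spike-in scaling only Idi1, Elovl6, Insig1 and Sqle kept a negative difference on their brightest probe set.

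**Figure D3:**
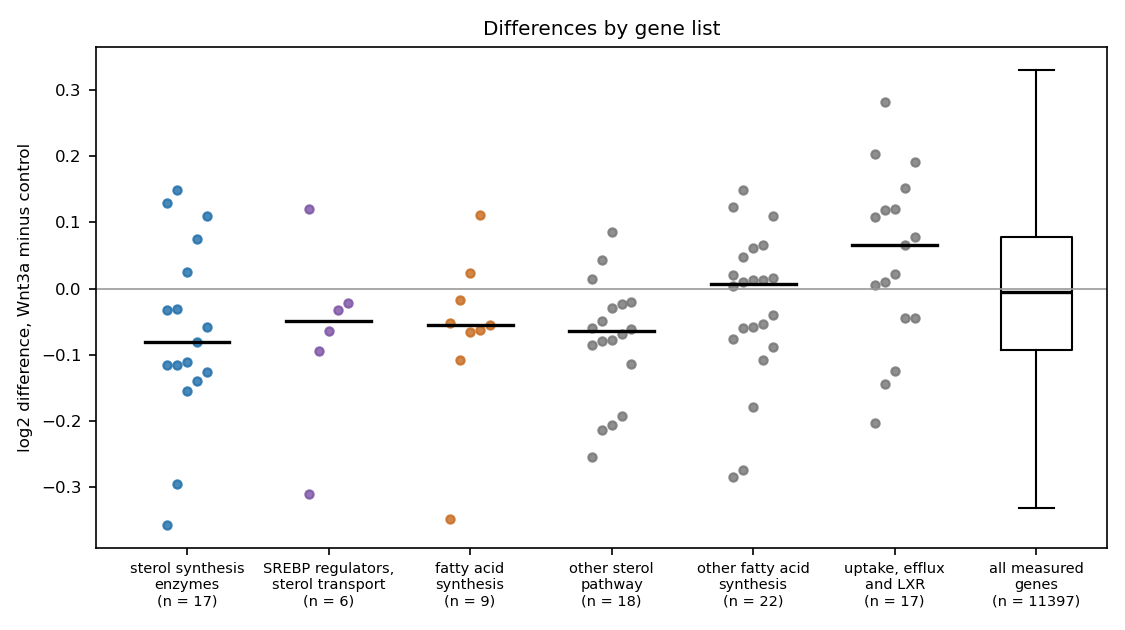
Log2 difference, Wnt3a minus control, of each measured gene on its brightest probe set by list, with black bars for medians and a box for all measured genes (quartiles, with whiskers over the central 95%). The 3 groups of members and the other sterol pathway genes have medians from -0.081 to -0.048, whereas the uptake, efflux and LXR list has one of 0.066, all relative to a median of -0.0057 for all genes, and all medians would be positive under spike-in scaling.

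A further list held genes of sterol metabolism together with general factors that act on it, such as NF-Y subunits, none of them members. Of 20 such genes with a probe set 18 were measured. As deposited, 15 of the 18 were lower and 3 higher, at a median of -0.064, smaller in size than the spike-in shift of 0.19, and none past 0.32, where 51.2% of all measured genes were lower. The general factors Nfya, Nfyb, Nfyc, Sp1, Fbxw7 and Ufd1 were 6 of the 15 lower genes. Tmem97, a protein of the endoplasmic reticulum that binds sterols, was at 8.98 with Wnt3a and 9.23 in the control on the log2 scale (-0.25). Nfya, the regulatory subunit of NF-Y, was at 9.91 with Wnt3a and 10.12 in the control (-0.21, and -0.26 on its other probe set at the floor). Ufd1, a cofactor of the degradation of endoplasmic reticulum proteins, was at 9.57 with Wnt3a and 9.78 in the control (-0.21). Ggps1, which makes geranylgeranyl diphosphate from farnesyl diphosphate, was at 7.75 with Wnt3a and 7.94 in the control (-0.19, but up to 0.17 on its other probe sets). Thus the largest 4 of this list were all lower on their brightest probe sets.

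Other genes of fatty acid and glycerolipid synthesis showed no common direction. Of 29 such genes 22 were measured, 10 lower and 12 higher, at a median of 0.0069. Gpam, which starts glycerolipid synthesis, was at 9.50 with Wnt3a and 9.79 in the control on the log2 scale (-0.28, and -0.26 on its other probe set). Elovl3, an elongase of saturated fatty acids, was at 6.37 with Wnt3a and 6.64 in the control (-0.27), and Lpin1, a phosphatidate phosphatase, at 7.54 with Wnt3a and 7.72 in the control (-0.18). Acacb, the acetyl-CoA carboxylase that controls fatty acid oxidation, was at 6.10 with Wnt3a and 5.95 in the control (0.15), at the level of the floor.

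Genes of cholesterol uptake, transport and efflux were measured in 17 of the 23 cases with a probe set. As deposited, 12 of the 17 were higher and 5 lower, at a median of 0.066 and none past 0.32, where 47.3% of all measured genes were higher and 51.2% lower. Gramd1b and Gramd1a, which carry cholesterol from the plasma membrane to the endoplasmic reticulum, were at 7.07 and 9.14 with Wnt3a and at 6.79 and 8.94 in the control (0.28 and 0.20). Vldlr, a lipoprotein receptor, was at 9.52 with Wnt3a and 9.33 in the control (0.19), with all 5 of its probe sets at the floor higher. Mylip, a ligase that degrades lipoprotein receptors and a target of the sterol-sensing LXR factors, was at 6.48 with Wnt3a and 6.68 in the control (-0.20). The LXR targets Abca1 and Abcg1, which export cholesterol, were below the floor on both arrays.

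**Figure D4:**
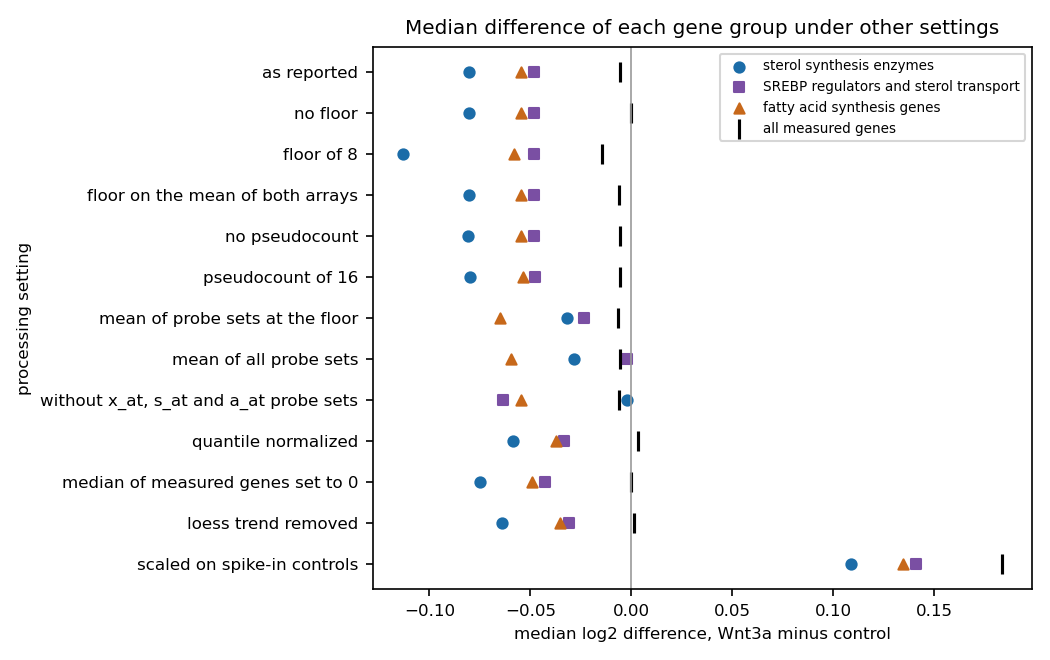
Median log2 difference, Wnt3a minus control, of the 3 gene groups and of all measured genes (black bars), with the processing setting on the vertical axis. The sterol median lies at -0.081 as reported and at -0.0022 without probe sets that may match several transcripts, and all 4 medians are positive, from 0.11 to 0.18, with spike-in scaling.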

How the data were processed

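Gene expression was measured on 2 Affymetrix arrays, 1 of Wnt3a-treated and 1 of control myoblasts. Per the labels' protocols, Trizol-extracted RNA was labelled with a 3′ expression kit. In the table the authors deposited, every probe set has an intensity on each array. RMA, affy and limma are named, per the submitters' processing notes, while their versions and settings and the genome build are not given in the sources used here. Deposited intensities (7.07 to 36604 with Wnt3a, 7.09 to 37075 in the control) are linear, although RMA usually gives log2 values, and how they were brought to that scale is not stated. Medians were 58.7 with Wnt3a and 57.9 in the control.

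From these, log2(intensity + 1) was taken, whose pseudocount of 1 makes differences of dim probe sets slightly smaller, and Wnt3a minus control computed. Of 45101 probe sets 64 controls were left out, and 34945 of the others had 1 gene in GEO's platform annotation, 932 had several and 9160 were unnamed here. Entrez identifiers of 34741 were found in the RefSeq table of GRCm38.p6, which changed 0 symbols. The brightest probe set, by mean, stood for its gene, which counted as measured where this reached 6 on either array (a fixed brightness, no detection limit). No test was possible with single arrays, so groups are described by counts and medians beside all measured genes, and counts use a fold of 1.25, a log2 difference of 0.32. Differences of 95% of measured genes, leaving out 2.5% at each end, spanned -0.33 to 0.33.

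All 32 members are named with both values, as are Axin2 and the 4 largest differences of each other list of sterol or lipid genes. Of the cell type markers only some are named with values. The members and lists were chosen with earlier results of these data known. Promoters came from RefSeq (GRCm38.p6). Printed promoters were those of the 3 sterol enzymes with the largest negative difference and of the fatty acid gene with the largest difference, outside chromosome 18, with Insig1 and Hmgcs1 added after seeing values. The gene-level code was tested on simulated data. Python 3.11.15, numpy 2.4.6, pandas 2.3.3, statsmodels 0.14.6 and matplotlib 3.10.9 were used.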

Additional observations from a re-analysis of the deposited data

How the results depend on the processing

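No paired analysis was possible because there was 1 array per group. Each gene group was recomputed under 15 alternatives and the promoter counts under 2. Spike-in scaling moved most values. It gave medians of 0.11 for sterol enzymes, 0.14 for regulators, 0.13 for fatty acid genes and 0.18 for all measured genes, lower genes numbered 2, 1, 1 and 1127 in the same order, and 1 sterol enzyme (Tm7sf2) and 1616 genes in all were higher by at least 0.32, while 0 sterol enzymes, 0 fatty acid genes and 61 genes in all were that much lower. The median of all genes, near 0 as deposited, was 0.0034 after quantile normalization and 0.0013 after removal of a loess trend. Without probe sets that may match several transcripts 7 of 14 sterol enzymes were lower. With the mean of all probe sets 3 regulators were lower, and with this mean or that of the probe sets at the floor 0 sterol enzymes and 0 fatty acid genes were lower by 0.32. Among all genes, 553 were higher and 477 lower by that much with no floor, and 169 and 189 with a floor of 8. A threshold of 1.1-fold gave 4 sterol enzymes lower and 1 higher, 1 regulator lower, and 1529 genes in all higher and 1898 lower. At 1.5-fold and 2-fold 0 sterol enzymes and 0 fatty acid genes were lower, with 101 and 29 genes in all higher and 39 and 7 lower. The causes were not tested. The other 184 values, promoter counts included, moved by less than 0.12 (medians) or by at most 1.5 times (counts). The limit of 0.12 exceeds each group median in size, so a median that fell to near 0 still counted among them. Such were the sterol median of -0.0022 without probe sets that may match several transcripts and the regulator median of -0.0023 with the mean of all probe sets. Among the 184, the median of all genes was 0 with no floor and, by construction, when centred. Members changed sign in 20 of 32 cases under spike-in scaling, in 6 with the mean of all probe sets, 3 with that at the floor, 2 of 28 without the shared probe sets and 1 (Scd1) with the loess trend removed. Scd1, just above the floor, is nearer background than a bright probe set would be.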
